A study of Rattus rattus with 10 samples.

Results

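Lonidamine was set against its vehicle in rat testis 4, 12 and 24 h after a single dose. The comparison takes the 3 arrays labelled lonidamine and the 3 vehicle arrays of the same hours, paired by hour, and these are 6 of the 10 arrays of the series. Per the labels, all animals were adult Long-Evans males, 60 days old, dosed once by intraperitoneal injection, and RNA came from whole testis. The lonidamine rats received 25 mg/kg, and the vehicle rats received buffered DMSO. No genetic change is named for any group. The other arrays were 3 of gamendazole at 6 mg/kg and 1 of vehicle at 0 h. The gamendazole arrays entered the averaged fit, where they helped to set the hour terms and the residual spread, and the filter on low values. The number of calls therefore depends on them, and counts without them are given below. Each treatment has 1 array at an hour, so no difference at a single hour has a replicate check, and hours stand in for replicates where they are averaged. How many animals or pooled testes lie behind an array is not stated in the labels, and the spread between arrays may be partly technical.

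Lonidamine is an indazole carboxylic acid that was studied as a male contraceptive and as an anticancer agent. It blocks the mitochondrial pyruvate carrier and the plasma membrane lactate transporters, and it also acts on mitochondrial complex II and on hexokinase bound to mitochondria. In the testis it loosens the contact between Sertoli cells, which nurse the germ line in the tubule wall, and the germ cells they hold, so that immature germ cells are shed. Sertoli cells feed germ cells with lactate, hold them by actin-rich junctions and seal the tubule by the blood-testis barrier. Leydig cells lie between the tubules and make testosterone under luteinising hormone, and resident macrophages lie beside them.

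The values are linear probe-set intensities, called units below, and all arrays share a trimmed mean of 500 units. Array medians lay between 115.0 and 116.6 units with lonidamine and between 114.0 and 117.1 units with vehicle. The 3' to 5' ratio of the beta-actin probe sets, a measure of RNA integrity, was 1.96, 1.92 and 1.85 on the lonidamine arrays of 4, 12 and 24 h, against 1.92, 1.98 and 1.96 on the vehicle arrays. It ran down over the hours with lonidamine and had no order with vehicle, and its part in the results was not tested beyond the covariate fit given below. Each lonidamine array was hybridised in the same run as the vehicle array of its hour, by the instrument records deposited with the arrays. The 4, 12 and 24 h pairs lay in 3 different runs, so hour and run cannot be told apart for these 6 arrays. The 4 h gamendazole array, which also entered the averaged fit, was hybridised in the run of the 12 h pair. Testis genes were bright throughout: Tnp1, a spermatid chromatin protein, had 35494, 39403 and 33175 units with lonidamine, against 38347, 43083 and 39616 units with vehicle. Values under 37.1 units, the pooled 25th percentile, were set to that floor, and a fold whose lower side lay there is given as a lower bound. Log2 differences are taken after this step, so those of genes at the floor are bounds too, and ± gives their standard error. The 10456 genes tested reached 116.2 units, the pooled median, on at least 2 of the 9 arrays of 4 to 24 h.

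The difference from vehicle widened over the 3 hours, and most of what was added was higher with lonidamine. A gene was counted as at least 2-fold apart only where the brighter of the 2 arrays also reached 116.2 units, and every 2-fold count below keeps this condition. At 4 h, 125 genes were at least 2-fold higher with lonidamine than on the vehicle array (1.2% of those tested) and 108 were at least 2-fold lower (1.03%). At 12 h the numbers were 343 higher (3.28%) and 127 lower (1.21%). At 24 h they were 573 higher (5.48%) and 205 lower (1.96%). In both directions together this made 233, 470 and 778 genes, while any 2 of the 4 vehicle arrays were at least 2-fold apart at 177 to 205 genes. The counts at all 3 hours lay above every vehicle pair, that at 4 h by the smallest margin. The 125 genes higher at 4 h lay within the 75 to 128 of the vehicle pairs. Each lonidamine pair lay within 1 hybridisation run, as did the vehicle pair of 0 and 4 h (205 genes), while the other vehicle pairs crossed runs.

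**Figure D1:**
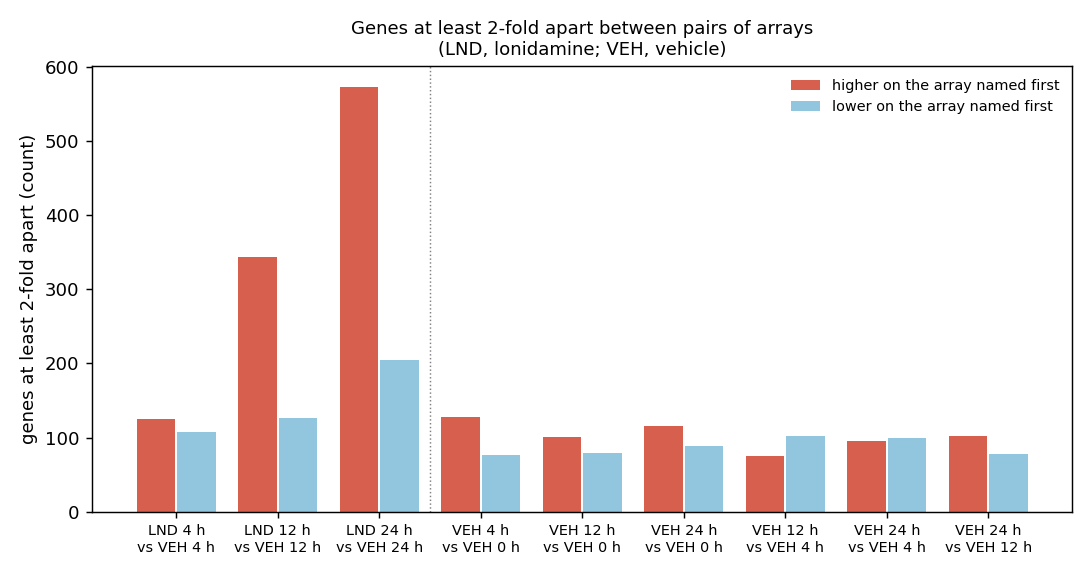
Number of genes at least 2-fold apart, with the brighter array at or above 116.2 units, for each pair of arrays, with genes higher and lower on the array named first as separate bars. The lonidamine pairs of 4, 12 and 24 h stand left of the dotted line (125, 343 and 573 genes higher) and the 6 vehicle pairs right of it (75 to 128 higher).

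The hours shared part of their genes. Of the 125 genes at least 2-fold higher at 4 h, 44 were also at least 2-fold higher at 12 h and 48 at 24 h. Of the 343 at 12 h, 194 were also at least 2-fold higher at 24 h. The lower side overlapped less: of the 108 genes at least 2-fold lower at 4 h, 10 were also lower by that much at 24 h and 12 were at least 2-fold higher then. Over all tested probe sets, the log2 differences of 12 and 24 h correlated at Pearson r = 0.459, those of 4 and 12 h at 0.186 and those of 4 and 24 h at 0.121. These correlations run across 17405 probe sets, which are not independent replicates, and the pairs share no array.

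Averaged over the hours, 88 genes rose with lonidamine at an adjusted p under 0.05 (0.842% of 10456) and 1 fell (0.00956%). The test was limma on log2 intensity with hour as a block. At the level of probe sets these were 135 higher (0.776% of 17405) and 2 lower (0.0115%), and 2225 probe sets had an unadjusted p under 0.05. The averaged differences of the 88 genes ran from log2 0.46 to 4.63, and their medians at 4, 12 and 24 h were 0.99, 1.49 and 1.42. The difference was largest at 4 h in 7 of them, at 12 h in 40 and at 24 h in 41. In 87 of the 88 the lowest lonidamine array lay above the highest vehicle array, which was so for 955 of all 10456 tested genes (9.13%). The count of 137 probe sets changed with each hour left out. With the 4 h arrays left out it rose to 573, which held 131 of the 137. It fell to 0 (1126 at an unadjusted p under 0.05) with those of 12 h left out and to 19 with those of 24 h left out. It was 47 in the 6 arrays alone, 49 without the hour as a block, and 30 to 223 when 1 gamendazole array was left out of the fit. With the actin 3' to 5' ratio as a covariate it was 4, with no filter on low values 0 (2775 at an unadjusted p under 0.05), with the floor at the pooled median 2, and with no intensity trend in the eBayes step 2. For the gene groups below, no member of any group fell past the threshold.

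Chemokines, the secreted proteins that draw leukocytes into tissue, held the largest averaged differences. Of 16 tested, 4 rose, namely Cxcl1, Ccl2, Cxcl11 and Cxcl10, and the median over the 16 was log2 0.89, against -0.02 over all tested genes. Their medians at 4, 12 and 24 h were 0.25, 1.40 and 1.81. Cxcl1, which attracts neutrophils, had 787, 1994 and 495 units with lonidamine, against 2.7, 3.6 and 5.7 units with vehicle (log2 4.63 ± 0.49, limma adjusted p = 0.00703). Every vehicle array lay far below the floor for Cxcl1, and its lonidamine value was highest at 12 h, where the fold was at least 53.7. Ccl2, which attracts monocytes, had 203, 1435 and 2119.9 units with lonidamine, against 5.4, 20.9 and 5.7 units with vehicle (log2 4.52 ± 0.54, limma adjusted p = 0.0106). Cxcl11, a ligand of the T cell receptor Cxcr3, had 94.5, 586 and 1538 units with lonidamine, against 35.5, 39.1 and 38.4 units with vehicle (log2 3.53 ± 0.62, limma adjusted p = 0.0394). Both climbed from hour to hour on the lonidamine arrays, while all vehicle values stayed at or near the floor. Cxcl10, a second ligand of Cxcr3, had 266, 1153 and 686 units with lonidamine, against 80.8, 119 and 67.6 units with vehicle (log2 2.78 ± 0.44, limma adjusted p = 0.0321). Ccl20 and Ccl7 did not pass the threshold. Ccl20, the ligand of Ccr6, had 60.4, 1148 and 855 units with lonidamine, against 12.1, 9.6 and 12.7 units with vehicle (log2 3.39 ± 0.67, limma adjusted p = 0.0562). Ccl7, another monocyte chemokine, had 39.8, 595 and 681 units with lonidamine, against 6.3, 6.9 and 5.4 units with vehicle (log2 2.77 ± 0.76, limma adjusted p = 0.155). For both, the lonidamine arrays of 12 and 24 h stood apart, and the 4 h array lay close to the floor. The number of chemokines called was 8 of 15 with 4 h left out, 0 of 14 with 12 h left out and 1 of 15 with 24 h left out. Over all genes in these fits the number higher was 346 of 10246 (3.38%) with 4 h left out, 0 of 10190 with 12 h left out and 13 of 10122 (0.128%) with 24 h left out, and the counts of the same kind given for later groups stand beside these shares.

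Of the interleukin-1 and NF-kB pathway, which carries inflammatory signals from receptors to the nucleus, 5 of 24 tested genes rose. They were Ripk2, Il1a, Nfkbiz, Icam1 and Tnfaip3, and the median of the 24 was log2 1.08. Hour by hour that median was 0.30, 1.15 and 1.51. Among ligands, Il1a had 943, 1441 and 661 units with lonidamine, against 139.5, 104 and 101 units with vehicle (log2 3.09 ± 0.30, limma adjusted p = 0.00509). All 3 lonidamine arrays stood above all vehicle arrays for Il1a, and the 12 h array was the highest. Among receptors, Il1r1 did not pass, with 192, 587 and 824 units with lonidamine, against 174, 132 and 121 units with vehicle (log2 1.69 ± 0.41, limma adjusted p = 0.110). Its 4 h pair lay close together, and its later pairs were wide apart. Among kinases, Ripk2, which relays signals of the NOD receptors, had 382, 1383 and 1305 units with lonidamine, against 82.0, 90.4 and 97.6 units with vehicle (log2 3.30 ± 0.31, limma adjusted p = 0.00509). Nfkbiz, a nuclear member of the I-kappa-B family, had 218, 509.6 and 177 units with lonidamine, against 47.4, 63.8 and 38.4 units with vehicle (log2 2.47 ± 0.39, limma adjusted p = 0.0293). Tnfaip3, an inducible brake on the pathway also called A20, had 309.9, 659.8 and 409.9 units with lonidamine, against 134, 195 and 183 units with vehicle (log2 1.38 ± 0.24, limma adjusted p = 0.0394). In these 3 genes the groups did not overlap, and the lonidamine value was highest at 12 h. Icam1, the endothelial and Sertoli cell ligand for leukocyte integrins, had 179, 779 and 1179 units with lonidamine, against 99.5, 96.8 and 157 units with vehicle (log2 2.25 ± 0.36, limma adjusted p = 0.0321). Nfkb2, the precursor of the p52 subunit, had 81.8, 205 and 389 units with lonidamine, against 37.8, 75.3 and 44.6 units with vehicle and did not pass (log2 1.89 ± 0.50, limma adjusted p = 0.137). The number of pathway members called was 12 of 24 with 4 h left out, 0 of 22 with 12 h left out and 2 of 23 with 24 h left out.

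Immediate early genes, which cells switch on within minutes of a stimulus, gave the largest number of calls. Of 42 tested, 12 rose: Fos, Ier3, Egr1, Zfp36, Dusp5, Junb, Ccn2, Klf6, Dusp1, Jun, Rhob and Dusp6. The median of the 42 was log2 0.82 on average and 0.50, 1.01 and 1.24 at 4, 12 and 24 h. At all 3 hours 9 of the 42 were at least 2-fold higher, against 33 of all 10456 tested genes. Fos, a subunit of the transcription factor AP-1, had 348, 667 and 257 units with lonidamine, against 27.4, 15.1 and 63.1 units with vehicle (log2 3.14 ± 0.51, limma adjusted p = 0.0324). Egr1, a zinc finger transcription factor, had 982, 1804 and 431 units with lonidamine, against 157, 144 and 137 units with vehicle (log2 2.65 ± 0.36, limma adjusted p = 0.0185). Ier3, which affects cell survival, had 806, 1155 and 1078 units with lonidamine, against 94.7, 123 and 232 units with vehicle (log2 2.85 ± 0.30, limma adjusted p = 0.00653). For Fos and Egr1 the 24 h lonidamine array was the lowest of the 3, yet still above every vehicle array, while Ier3 stayed near one level on its later lonidamine arrays as its vehicle value climbed. Zfp36, which speeds the decay of cytokine mRNAs, had 585, 1028 and 598 units with lonidamine, against 161, 163 and 189 units with vehicle (log2 2.06 ± 0.37, limma adjusted p = 0.0406). Dusp5, a phosphatase that turns off ERK, had 208, 239 and 187 units with lonidamine, against 86.1, 59.1 and 34.0 units with vehicle (log2 1.87 ± 0.29, limma adjusted p = 0.0293). Dusp1, a phosphatase of the MAP kinases p38 and JNK, had 942, 979 and 988 units with lonidamine, against 393, 431 and 438 units with vehicle (log2 1.21 ± 0.14, limma adjusted p = 0.0101). Dusp1 was the flattest of these, with nearly equal values on all 3 lonidamine arrays. A second probe set of Dusp1 gave only log2 0.12. Gadd45b and Atf3, both stress-inducible, did not pass, at log2 2.21 (adjusted p = 0.0933) and 2.17 (adjusted p = 0.0626). Their per-hour differences were 0.75, 2.96 and 2.90 for Gadd45b and 0.82, 2.18 and 3.50 for Atf3. The number of immediate early genes called was 18 of 38 with 4 h left out, 0 of 40 with 12 h left out and 3 of 42 with 24 h left out.

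**Figure D2:**
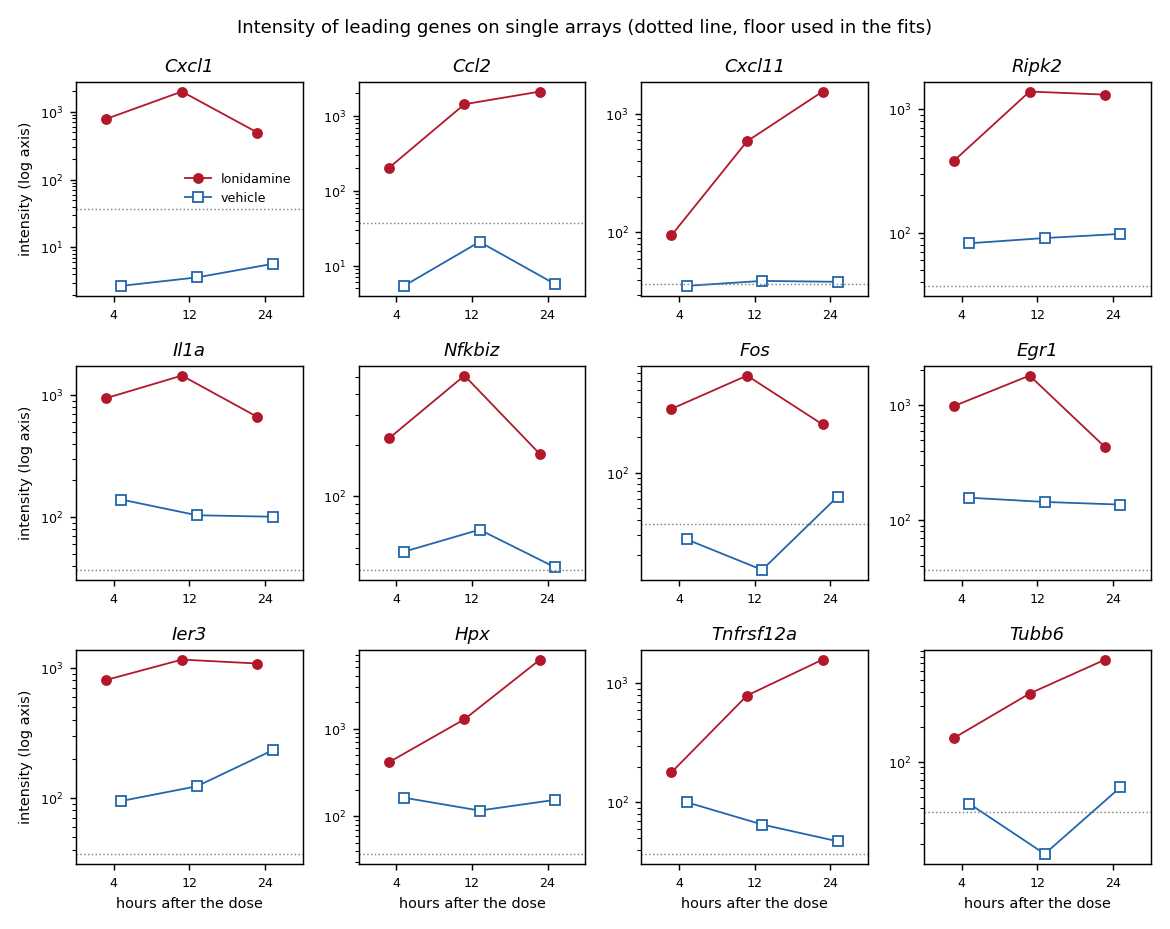
Intensity on single arrays (log axis) against hours after the dose for 12 genes, with lonidamine as filled red circles and vehicle as open blue squares. Cxcl1, Fos and Egr1 peak at 12 h with lonidamine, Cxcl11, Hpx, Tnfrsf12a and Tubb6 are highest at 24 h, and every lonidamine point lies above the vehicle point of its hour.

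The interleukin-6 and STAT3 pathway drives the acute phase response, in which liver and other tissues secrete protective plasma proteins. Of 15 tested genes of this group, Hpx, Cebpd and Il6st rose, and the median was log2 1.17. Its medians by hour were 0.26, 1.34 and 1.58. Hpx, hemopexin, which binds free haem, had 413, 1281 and 6151 units with lonidamine, against 163, 116 and 154 units with vehicle (log2 3.38 ± 0.58, limma adjusted p = 0.0388). The 24 h lonidamine array was 40.0-fold above vehicle. Cebpd, a transcription factor of the acute phase, had 333, 863 and 440.1 units with lonidamine, against 77.8, 109 and 104 units with vehicle (log2 2.39 ± 0.25, limma adjusted p = 0.00647). Il6st, the shared receptor chain gp130, had 608, 1213 and 1339.9 units with lonidamine, against 407, 479 and 447 units with vehicle (log2 1.17 ± 0.20, limma adjusted p = 0.0388). Stat3 itself did not pass, with 474, 1215 and 1778 units with lonidamine, against 331, 198 and 241 units with vehicle (log2 2.01 ± 0.41, limma adjusted p = 0.0604). The protease inhibitor Serpina3n did not pass either, with 68.2, 195 and 1194 units with lonidamine, against 54.7, 6.0 and 43.0 units with vehicle (log2 2.5 ± 0.77, limma adjusted p = 0.204). For Stat3 and Serpina3n the difference was small at 4 h and large at 24 h, which the averaged fit counts as spread. The number called was 9 of 15 with 4 h left out, 0 of 15 with 12 h left out and 1 of 15 with 24 h left out.

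Of 21 interferon response genes, Gbp4 and Irf1 rose, and the group differed most at 24 h, with medians of -0.02, 0.27 and 1.29 by hour. Gbp4, an interferon-induced GTPase, had 204, 709 and 1421 units with lonidamine, against 83.3, 145 and 137 units with vehicle (log2 2.32 ± 0.34, limma adjusted p = 0.0260). Irf1, a transcription factor of the interferon response, had 297, 1041 and 1159.9 units with lonidamine, against 173, 149 and 205 units with vehicle (log2 2.03 ± 0.35, limma adjusted p = 0.0388). Gbp2, of the same GTPase family, had 288, 1135 and 4805 units with lonidamine, against 194, 135 and 159.7 units with vehicle without passing (log2 2.85 ± 0.67, limma adjusted p = 0.105). Tap1, which loads peptides for antigen presentation, had 49.3, 163 and 437 units with lonidamine, against 65.4, 65.3 and 67.1 units with vehicle (log2 1.21 ± 0.52, limma adjusted p = 0.375). For Tap1 the 4 h lonidamine array lay below vehicle, and the 24 h array was the highest of the 6. Of 7 tested TNF receptors, Tnfrsf12a and Tnfrsf1a rose. Tnfrsf12a, the receptor of TWEAK, had 179, 786 and 1572 units with lonidamine, against 101, 65.4 and 47.3 units with vehicle (log2 3.16 ± 0.59, limma adjusted p = 0.0484). Tnfrsf1a, the main receptor of TNF, had 267, 922 and 1131 units with lonidamine, against 143, 129 and 189 units with vehicle (log2 2.11 ± 0.32, limma adjusted p = 0.0282). Fas, a death receptor, did not pass (log2 0.93 ± 0.55, limma adjusted p = 0.533), and its per-hour differences were -1.07, 1.62 and 2.25. The median over the 7 was -0.62, 1.62 and 2.12 at 4, 12 and 24 h, so it was below 0 at 4 h and above 0 later. At 4 h, however, 3 of the 7 lay above 0, 0 were counted as at least 2-fold lower, and Fas lay under the floor with lonidamine. The summed intensity of the 17 list members with a probe set was then 1294 units with lonidamine, against 1304 units with vehicle. The number of interferon genes called was 4 of 21 with 4 h left out, 0 of 20 with 12 h left out and 0 of 18 with 24 h left out. That of TNF receptors was 5 of 6 with 4 h left out, 0 of 7 with 12 h left out and 0 of 7 with 24 h left out.

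Actin and focal adhesion genes, whose products anchor cells to each other and to the basement membrane, moved by smaller amounts. Of 44 tested, Zyx, Csrp1 and Vcl rose, 38 had an averaged difference above 0, and the median was log2 0.37. The medians by hour were 0.04, 0.36 and 0.54. Zyx, zyxin, an adaptor of focal adhesions, had 1312, 1501 and 1494 units with lonidamine, against 809, 874 and 847 units with vehicle (log2 0.77 ± 0.12, limma adjusted p = 0.0328). Vcl, vinculin, which links integrins and cadherins to actin, had 2565, 2058 and 2466 units with lonidamine, against 1531, 1618 and 1588 units with vehicle (log2 0.58 ± 0.09, limma adjusted p = 0.0277). Csrp1, a zyxin partner, had 715, 768 and 1324 units with lonidamine, against 499.8, 555 and 719 units with vehicle (log2 0.62 ± 0.12, limma adjusted p = 0.0471). The groups did not overlap for Zyx and Vcl, whereas for Csrp1 the 4 h lonidamine array lay below the 24 h vehicle array. S100a10, an annexin partner, and Tpm4, a tropomyosin, did not pass, at log2 2.05 (adjusted p = 0.0659) and 1.48 (adjusted p = 0.201). S100a10 had 599, 1626 and 4219 units with lonidamine, against 451, 314 and 409 units with vehicle. Its 4 h pair lay close together and its 24 h pair was 10.3-fold apart. The number called was 12 of 44 with 4 h left out, 0 of 44 with 12 h left out and 0 of 44 with 24 h left out.

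Of 29 tested genes of integrins, laminins and matrix proteolysis, Adamts1 and Plat rose. Adamts1, a matrix metalloprotease, had 134, 447 and 209.6 units with lonidamine, against 30.6, 37.5 and 77.7 units with vehicle (log2 2.29 ± 0.41, limma adjusted p = 0.0419). Plat, tissue plasminogen activator, had 195, 625 and 597 units with lonidamine, against 128, 105 and 131 units with vehicle (log2 1.79 ± 0.31, limma adjusted p = 0.0394). Timp1, an inhibitor of matrix metalloproteases, did not pass on average (log2 2.28 ± 0.65, limma adjusted p = 0.172) but had 856, 2589.5 and 9208 units with lonidamine, against 752, 406 and 584 units with vehicle. Its 24 h lonidamine array was 15.8-fold above vehicle. Testin, a protein secreted by Sertoli cells and known in the rat for its rise when germ cell junctions open, had 136, 262 and 1113 units with lonidamine, against 74.7, 71.9 and 36.4 units with vehicle and did not pass (log2 2.55 ± 0.67, limma adjusted p = 0.137). The number called was 10 of 29 with 4 h left out, 0 of 28 with 12 h left out and 0 of 28 with 24 h left out.

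None of 25 tested genes of the blood-testis barrier and the Sertoli-germ cell junctions passed, by limma, and 6 of them had an unadjusted p under 0.05, all with a positive difference. Over all 10456 genes, 8.14% had an unadjusted p under 0.05 with a positive and 5.71% with a negative difference, and such counts below are to be read beside these shares. The median was log2 0.07. The number called was 3 of 24 with 4 h left out, 0 of 24 with 12 h left out and 0 of 25 with 24 h left out. Under quantile normalisation it was 1 of 25, against 62 of all 10456 genes higher, and under cyclic loess 1 of 25, against 69. Cdh2, N-cadherin, the cadherin between Sertoli and germ cells, had 260.3, 566 and 544 units with lonidamine, against 216, 172 and 218 units with vehicle (log2 1.1 ± 0.25, limma adjusted p = 0.0926). Cldn1, a tight junction protein, had 124, 109 and 117 units with lonidamine, against 57.9, 75.7 and 71.5 units with vehicle (log2 0.78 ± 0.33, limma adjusted p = 0.372). For Cdh2 the later pairs were apart by more than the 4 h pair, and for Cldn1 the 4 h pair was the widest. A second probe set of Cdh2 gave log2 1.28. Of 23 tubulins and microtubule factors, 1 rose. Tubb6, a beta-tubulin, had 161, 386 and 754 units with lonidamine, against 44.0, 16.3 and 60.6 units with vehicle (log2 2.96 ± 0.34, limma adjusted p = 0.0101). Camsap3, which caps microtubule minus ends, did not pass (log2 -0.56 ± 0.35, limma adjusted p = 0.571). Its per-hour differences were 0.18, -0.73 and -1.13. The number of tubulin list members called was 2 of 23 with 4 h left out, 0 of 23 with 12 h left out and 0 of 23 with 24 h left out.

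The genes of the proteins that lonidamine binds or inhibits, together with other genes of lactate and pyruvate handling, held no member past the threshold. None of 27 tested passed, 1 had an unadjusted p under 0.05 with a positive and 5 with a negative difference, and the median was log2 -0.06. That sign turned under quantile normalisation and under cyclic loess. Hk1, the hexokinase bound to mitochondria, had 20985, 21036 and 19802 units with lonidamine, against 21826, 21245 and 21311 units with vehicle (log2 -0.06 ± 0.05, limma adjusted p = 0.656). Mpc2, a subunit of the mitochondrial pyruvate carrier, had 13795, 13212 and 12671 units with lonidamine, against 14732, 14115 and 13635 units with vehicle (log2 -0.10 ± 0.04, limma adjusted p = 0.350). Slc16a1, a lactate transporter, had 1384, 1276 and 1246 units with lonidamine, against 1305, 1451 and 1307 units with vehicle (log2 -0.06 ± 0.14, limma adjusted p = 0.918). Each of these pairs lay within a narrow band at every hour. The other members gave averaged differences of 0.23 (adjusted p = 0.653) for Hk2, -0.04 (adjusted p = 0.881) for the transporter gene Slc16a7 and -0.10 (adjusted p = 0.735) for Mpc1. Slc16a3, a lactate exporter, had 100.4, 103 and 54.1 units with lonidamine, against 61.0, 32.2 and 119.6 units with vehicle (log2 0.35 ± 0.54, limma adjusted p = 0.848). It was above vehicle at 4 and 12 h and below it at 24 h, with log2 differences of 0.72, 1.47 and -1.15, so its average hides opposite signs at values near the floor. The subunits of complex II gave -0.14 (adjusted p = 0.571) for Sdha, -0.06 (adjusted p = 0.870) for Sdhb, 0.03 (adjusted p = 0.948) for Sdhc and -0.00 (adjusted p = 0.998) for Sdhd. Cftr, a chloride channel that lonidamine blocks, gave 0.15 (adjusted p = 0.869), and Ldhc, the germ cell lactate dehydrogenase, gave -0.14 (adjusted p = 0.230). The largest other averaged differences on this list were Emb, the embigin chaperone of lactate transporters, at 0.45 (adjusted p = 0.283), and Pdk1, which inhibits pyruvate dehydrogenase, at -0.35 (adjusted p = 0.556). None of these passed.

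Glycolysis genes gave 0 of 20 past the threshold by limma (2 with a positive and 3 with a negative difference at an unadjusted p under 0.05) and a median of log2 -0.05, whose sign also turned under both other normalisations. Pfkfb3, which drives glycolytic flux, had 272, 218 and 289 units with lonidamine, against 137, 131 and 197 units with vehicle (log2 0.76 ± 0.25, limma adjusted p = 0.228), and Aldoc, an aldolase, had 244, 199.9 and 101 units with lonidamine, against 319, 244 and 380.1 units with vehicle (log2 -0.86 ± 0.34, limma adjusted p = 0.326). The Pfkfb3 difference was above 0 at each hour, and that of Aldoc below 0 at each hour. HSP90 and heat shock genes gave 0 of 28 (1 and 2 at an unadjusted p under 0.05, above and below 0) and translation elongation genes 0 of 11 (1 and 1). The averaged differences were 0.08 (adjusted p = 0.728) for Hsp90ab1, a cytosolic HSP90, and -0.12 (adjusted p = 0.279) for Eef1a1, the elongation factor that brings aminoacyl-tRNA to the ribosome. Hsp90ab1 had 4712, 5255 and 5317 units with lonidamine, against 4874, 4697 and 4879 units with vehicle, and Eef1a1 had 19941, 19524 and 18995 units with lonidamine, against 20363, 21301 and 21748 units with vehicle.

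In the averaged fit, single genes rose within the stress, hormone and metabolic groups. Srxn1, sulfiredoxin, was the 1 of 23 NRF2 and xenobiotic genes to rise, with 322, 408 and 478 units with lonidamine, against 162, 257 and 237 units with vehicle (log2 0.89 ± 0.16, limma adjusted p = 0.0423). Ppp1r15a, GADD34, which restores translation after stress, was the 1 of 29 integrated stress and unfolded protein genes, with 423, 629.9 and 623 units with lonidamine, against 121, 119 and 178 units with vehicle (log2 2.0 ± 0.32, limma adjusted p = 0.0324). The groups did not overlap for either gene. Among 15 glucocorticoid response genes, Nfil3 and Dusp1 rose, and among 17 clock genes, Nfil3 and Bhlhe40, so Nfil3 stands on both lists. Nfil3, a repressor of the clock output, had 157, 236 and 290.3 units with lonidamine, against 52.5, 10.7 and 43.1 units with vehicle (log2 2.33 ± 0.30, limma adjusted p = 0.0173). Bhlhe40, another repressor of the clock, had 182, 316 and 258 units with lonidamine, against 42.9, 82.7 and 56.4 units with vehicle (log2 2.07 ± 0.33, limma adjusted p = 0.0321). Dbp, a clock output gene, did not pass (log2 -0.99 ± 0.36, limma adjusted p = 0.291), and its per-hour differences were -0.36, -1.96 and -0.65. Mcl1, which protects from apoptosis, was the 1 of 20 p53 and apoptosis genes, with 2669, 3019.9 and 3439 units with lonidamine, against 1609, 1986 and 2301 units with vehicle (log2 0.64 ± 0.10, limma adjusted p = 0.0277). Fst, follistatin, which binds activin, was the 1 of 22 TGF-beta and growth factor genes, with 184, 289 and 249 units with lonidamine, against 71.1, 103 and 87.5 units with vehicle (log2 1.46 ± 0.22, limma adjusted p = 0.0260). Neither the 22 cholesterol genes nor the 16 amino acid transporters held a member past the threshold. At an unadjusted p under 0.05, 1 cholesterol gene lay above 0, and 4 transporters lay above and 1 below. The cholesterol genes had medians of -0.06, 0.07 and 0.58 at 4, 12 and 24 h. Without the 12 h arrays none of these single genes was called. With 4 h left out, 5 of 23 NRF2 and 3 of 29 stress genes were called higher, and 1 stress gene was called lower. The others called higher were 4 of 14 glucocorticoid, 2 of 17 clock, 3 of 20 apoptosis and 2 of 22 growth factor genes. For the cholesterol genes and transporters the numbers were 1 of 22 and 2 of 15. At 24 h, 5 of the 23 NRF2 genes were at least 2-fold higher and 0 lower, against 5.48% and 1.96% of all tested genes.

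**Figure D3:**
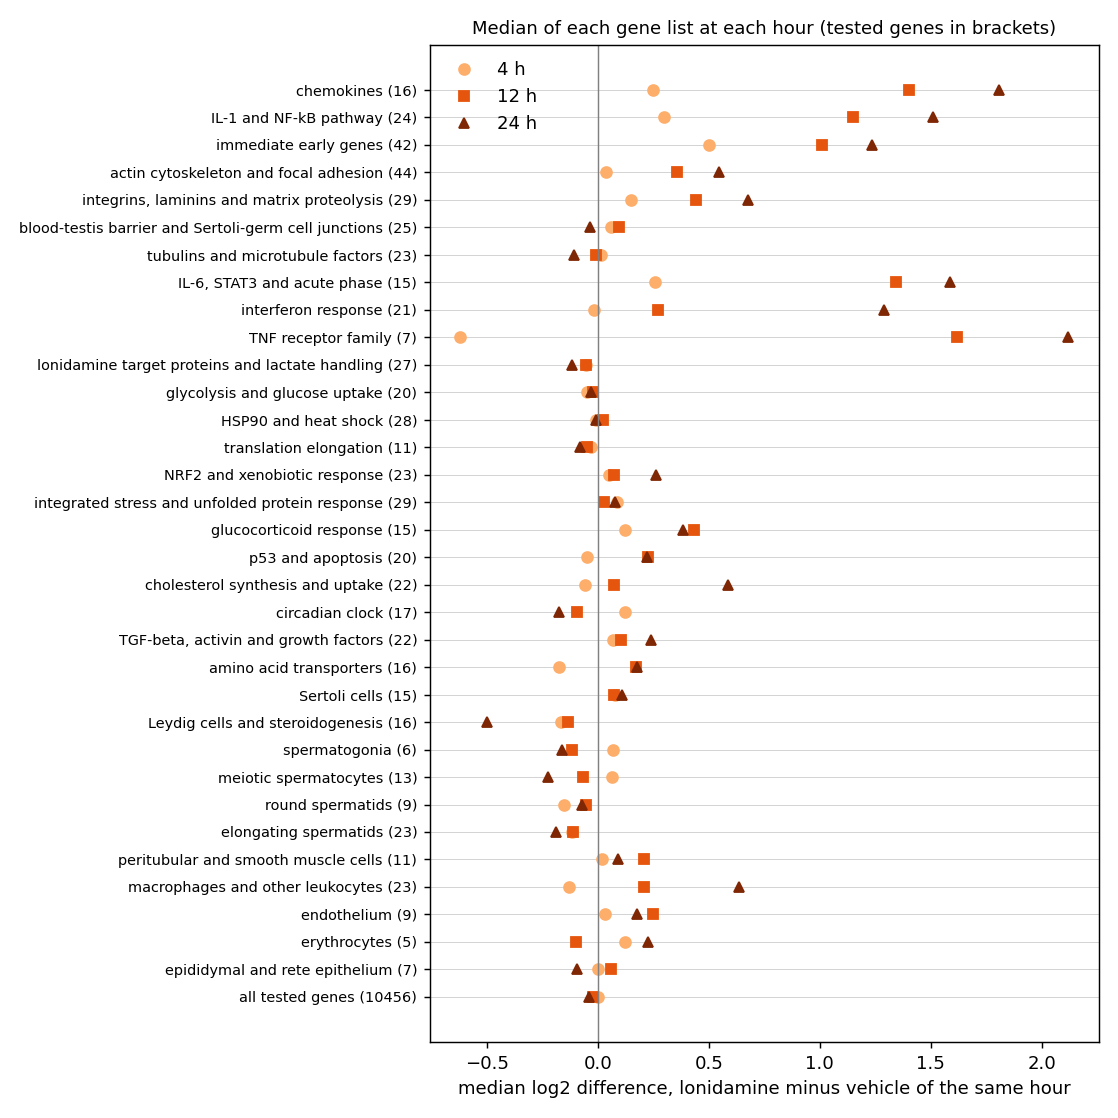
Median log2 difference of each gene list (rows, number of tested genes in brackets) at 4, 12 and 24 h, for lists with at least 5 tested genes. The chemokine, interleukin, acute phase, interferon and TNF receptor lists move to the right between 4 and 24 h, the lonidamine target and glycolysis lists stay near 0, and the Leydig cell list lies at -0.50 at 24 h.

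Leydig cell genes split at 24 h. Of 16 tested, 1 rose on average, Akr1c14, which inactivates dihydrotestosterone, with 229, 308 and 694 units with lonidamine, against 98.8, 134 and 153 units with vehicle (log2 1.54 ± 0.28, limma adjusted p = 0.0419). No vehicle array reached the lowest lonidamine array for Akr1c14. At 24 h, 6 of the 16 were at least 2-fold lower than vehicle, against 1.96% of all tested genes: Cyp17a1, Cyp11a1, Lhcgr, Hsd17b3, Hsd3b1 and Nr5a1. Apart from Cyp17a1 and Lhcgr these were chosen after their values were seen. Cyp17a1, the enzyme that turns progestins into androgens, had 1006, 434 and 69.4 units with lonidamine, against 1315, 1276 and 1269 units with vehicle (log2 -2.04 ± 0.76, limma adjusted p = 0.292). Its lonidamine value was lower at each later hour, and the 24 h pair was 18.3-fold apart. In whole testis, fewer Leydig cells and less RNA per Leydig cell cannot be told apart. Cyp11a1, which makes the first steroid from cholesterol, had 1216, 843 and 422 units with lonidamine, against 1637, 1598 and 1861 units with vehicle (log2 -1.17 ± 0.70, limma adjusted p = 0.543). Lhcgr, the receptor of luteinising hormone, had 315, 202 and 197 units with lonidamine, against 497, 465 and 675 units with vehicle (log2 -1.21 ± 0.51, limma adjusted p = 0.356). For Cyp11a1 and Lhcgr every lonidamine array lay below every vehicle array, without passing the threshold. Hsd3b1, a dehydrogenase of the same pathway, had 3117, 2673 and 1292 units with lonidamine, against 3707, 2522 and 2964 units with vehicle (log2 -0.45 ± 0.28, limma adjusted p = 0.561). Hsd17b3, which forms testosterone, had 58.5, 66.7 and 43.9 units with lonidamine, against 53.3, 151 and 118 units with vehicle (log2 -0.82 ± 0.55, limma adjusted p = 0.593), and Nr5a1, the steroidogenic factor, had 192, 309 and 171 units with lonidamine, against 283, 258 and 356 units with vehicle (log2 -0.45 ± 0.29, limma adjusted p = 0.569). Only the 24 h pair was at least 2-fold apart for Hsd3b1 and Nr5a1. Star, which carries cholesterol into mitochondria, went the other way at 24 h, with 1055, 713 and 2679.9 units with lonidamine, against 1188, 919 and 1124 units with vehicle (log2 0.24 ± 0.28, limma adjusted p = 0.783), and was also chosen after its values were seen. Insl3, another Leydig cell product, had 1830.0, 1409.8 and 1471 units with lonidamine, against 1616, 1398 and 2546 units with vehicle (log2 -0.20 ± 0.18, limma adjusted p = 0.717). The summed intensity of the 16 was 18631, 17681 and 21473 units with lonidamine, against 20681, 17819 and 21605 units with vehicle, so the sum at 24 h lay close to vehicle. With 4 h left out, 2 of 16 were called higher and 1 lower, against 346 and 44 of all 10246 genes. With 12 h or 24 h left out, 0 of 15 were called in either direction.

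**Figure D4:**
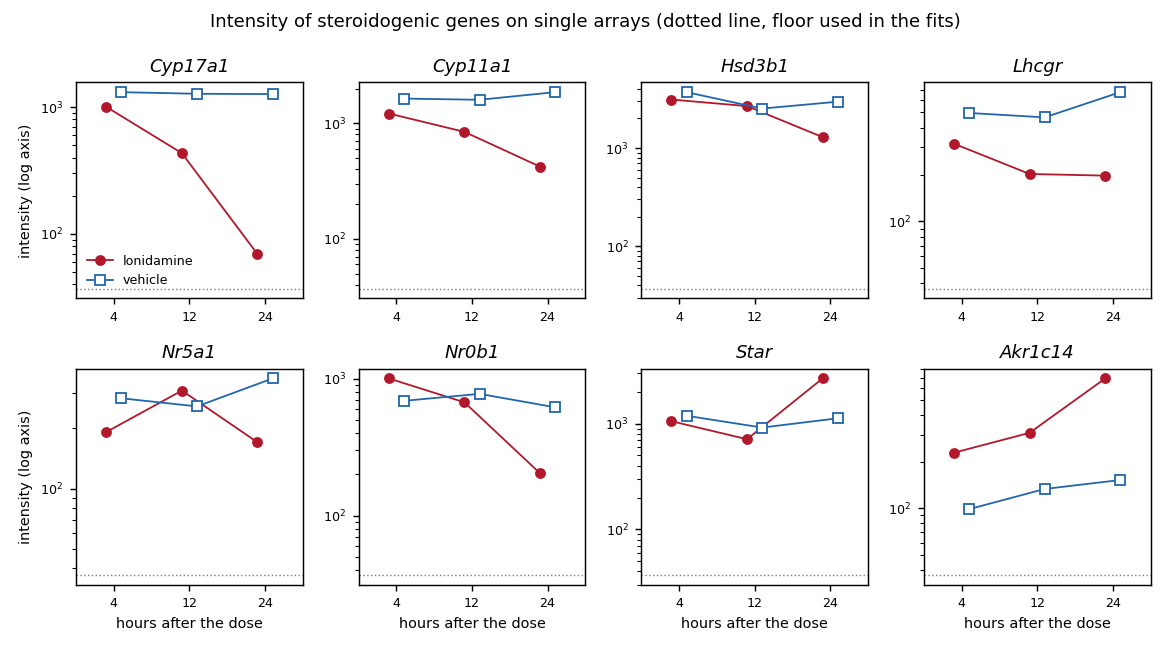
Intensity on single arrays (log axis) of 8 steroidogenic genes against hours after the dose, lonidamine as filled red circles and vehicle as open blue squares. Cyp17a1 with lonidamine drops to 69.4 units at 24 h and Cyp11a1 to 421.5 units, while Star and Akr1c14 are above vehicle at that hour.

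Of 15 Sertoli cell genes, Ctsl rose. Ctsl, cathepsin L, a protease that Sertoli cells secrete, had 4454, 6069.8 and 9246 units with lonidamine, against 3402, 3752 and 3799 units with vehicle (log2 0.79 ± 0.15, limma adjusted p = 0.0455). Inha, the inhibin alpha subunit, did not pass (log2 0.41 ± 0.13, limma adjusted p = 0.203). Nr0b1, a nuclear receptor that represses steroidogenesis, had 1003, 672 and 204 units with lonidamine, against 689, 774 and 618 units with vehicle, with the 24 h lonidamine array alone far below vehicle, and did not pass on average (log2 -0.42 ± 0.44, limma adjusted p = 0.758). Germ cell lists held no member past the threshold by limma. At an unadjusted p under 0.05 the counts above and below 0 were 1 and 1 of 6 for spermatogonia, 0 and 3 of 13 for meiotic spermatocytes, 0 and 3 of 9 for round spermatids and 0 and 13 of 23 for elongating spermatids. The shares over all tested genes were 8.14% above and 5.71% below 0, and the small counts on the spermatogonia list are not a result about it. The elongating spermatid genes had an averaged difference below 0 in 22 of 23 cases, with a median of log2 -0.14, against -0.02 over all tested genes. Their median was -0.035 (17 of 23 below 0) under quantile normalisation and -0.02 (16 of 23) under cyclic loess, against -0.03 and -0.01 over all tested genes. The size of the shift thus changed with the scaling used. Both methods align the bright values of the arrays, so a shift shared by bright genes can shrink with either, and its cause was not tested. The medians of the spermatocyte and round spermatid lists also moved toward 0 under both, and that of spermatocytes turned under cyclic loess. With 4 h left out, 3 of 23 elongating spermatid genes were called lower, against 44 of all 10246 genes. In that fit 1 of 6 spermatogonial genes was called higher, against 346 of all 10246. No germ cell list held a call with 12 h or with 24 h left out. The summed intensity of the elongating spermatid genes was 486849, 490568 and 456748 units with lonidamine, against 525166, 531039.5 and 515765 units with vehicle, and the groups did not overlap. Since every array was scaled to one trimmed mean, these are shares of the signal and not amounts per testis.

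Leukocyte markers were examined beside the inflammatory genes. Of 23 macrophage and other leukocyte genes, 0 passed by limma, with 6 above and 1 below 0 at an unadjusted p under 0.05. The summed intensity of the 30 list members with a probe set was 17379, 18992 and 23142 units with lonidamine, against 19343, 18240.1 and 18512 units with vehicle. The 24 h lonidamine array was highest, and the 4 h array lay below all vehicle arrays. The medians by hour were -0.13, 0.21 and 0.64. On average 15 of the 23 lay above 0, against 4741 of all 10456 tested genes. At 24 h 19 of the 23 lay above 0, and 6 were at least 2-fold higher, against 5.48% of all tested genes. Adgre1 and Ptprc were chosen after their values were seen and do not stand for the list. Adgre1, the macrophage antigen F4/80, had 657, 951 and 1093 units with lonidamine, against 1001, 823 and 936 units with vehicle (log2 -0.06 ± 0.16, limma adjusted p = 0.928). Ptprc, the pan-leukocyte antigen CD45, had 33.3, 75.6 and 147 units with lonidamine, against 44.5, 46.0 and 96.7 units with vehicle (log2 0.35 ± 0.38, limma adjusted p = 0.769). For Adgre1 the groups overlapped, and for Ptprc both values of 4 h lay near the floor. Fcgr2b, an Fc receptor, did not pass (log2 1.51 ± 0.48, limma adjusted p = 0.223), and its per-hour differences were 0.34, 1.15 and 3.04. Of 18 neutrophil genes, 9 had a probe set named here and 2 were tested, S100a9 and Il1r2. S100a9, a neutrophil granule protein, had 35.9, 143 and 123 units with lonidamine, against 1.0, 43.8 and 13.0 units with vehicle (log2 1.15 ± 0.45, limma adjusted p = 0.323). Il1r2, the decoy receptor of interleukin-1, had 24.0, 109.9 and 343 units with lonidamine, against 31.6, 24.6 and 12.7 units with vehicle (log2 1.59 ± 0.61, limma adjusted p = 0.312). Both were above vehicle at 12 and 24 h and at the floor on the 4 h lonidamine array. The summed intensity of the neutrophil genes with a probe set was 381, 539 and 729 units with lonidamine, against 144, 304 and 265 units with vehicle. Cd79b, a B cell marker, and Camp, a neutrophil granule peptide, were at or under the floor on all 6 arrays. The macrophage sum was above the vehicle array of its hour at 12 and 24 h, but at 12 h it lay below the 4 h vehicle array. The neutrophil sum was above vehicle at every hour, but it adds values under the floor, which carry no order. At 4 h both tested neutrophil genes lay under the floor with lonidamine. The part of these leukocytes in the inflammatory results was not tested.

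The other marker lists also held no member past the threshold by limma. Endothelial genes (9 tested), erythrocyte genes (5), peritubular and smooth muscle genes (11) and epididymal and rete epithelial genes (7) each had 1 gene above 0 at an unadjusted p under 0.05, and the epithelial list also 1 below. Of the 9 endothelial genes, 8 had an averaged difference above 0, with a median of log2 0.54, against -0.02 over all tested genes. Their medians by hour were 0.03, 0.25 and 0.18. At 24 h, 4 of the 9 were at least 2-fold higher and 0 lower, against 5.48% and 1.96% of all tested genes. Eng, endoglin of endothelium, gave 0.65 (adjusted p = 0.311), and Nos3, the endothelial nitric oxide synthase, gave 0.79 (adjusted p = 0.627). Hbb, beta-globin, gave 0.47 (adjusted p = 0.377). Tagln, transgelin of smooth muscle, gave 1.17 (adjusted p = 0.0508), and Des, desmin, gave 0.63 (adjusted p = 0.476). Krt19, a keratin of simple epithelia, gave 1.06 (adjusted p = 0.213).

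A group of 33 genes was at least 2-fold higher with lonidamine at all 3 hours with the brighter array at or above 116.2 units each time, and all 33 were among the 88 called. With no condition on brightness the group held 41 genes, of which 38 were called, and Cxcl11 was then in it and Nfkb2 was one of the 3 not called. The 33 include Cxcl1, Ccl2, Ripk2, Il1a, Hpx, Fos, Egr1 and Tubb6, the 8 with the largest fold at their highest hour. Genes at least 2-fold lower at all 3 hours under the same condition numbered 3, Nat8f5, Serpina4 and Afap1, and 5 without it. Nat8f5, of the Nat8 acetyltransferase family, had 84.8, 31.8 and 2.6 units with lonidamine, against 253, 277 and 379.5 units with vehicle and was the 1 gene that fell (log2 -2.61 ± 0.43, limma adjusted p = 0.0343). Its lonidamine value was at or under the floor at 12 and 24 h, while no vehicle value was. Serpina4 and Afap1 were named after their values were seen. Serpina4, a serine protease inhibitor, had 68.7, 76.7 and 87.3 units with lonidamine, against 167, 197 and 184 units with vehicle (log2 -1.24 ± 0.30, limma adjusted p = 0.109). Afap1, an actin filament protein, had 57.9, 118 and 62.1 units with lonidamine, against 135, 249 and 155 units with vehicle (log2 -1.21 ± 0.43, limma adjusted p = 0.272). Neither passed, although no lonidamine array reached a vehicle array for Serpina4.

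Other genes differed at 1 hour alone, at least 2-fold there and under 1.5-fold at the other hours after values were set to the floor. At 4 h these were 20 genes higher and 39 lower, at 12 h 41 higher and 51 lower, and at 24 h 149 higher and 94 lower. Where an array of another hour lies under the floor, the fold there is a lower bound and need not be under 1.5. Without such genes the numbers were 20 and 37 at 4 h, 39 and 49 at 12 h, and 140 and 94 at 24 h. The 8 with the largest folds at 4 h alone included Elavl3, an RNA-binding protein gene, with 186, 71.6 and 49.8 units with lonidamine, against 53.3, 74.9 and 44.0 units with vehicle, and Nos2, the inducible nitric oxide synthase, with 19.2, 95.9 and 152 units with lonidamine, against 149, 91.5 and 108 units with vehicle. Elavl3 was high on the 4 h lonidamine array and Nos2 low on it, and neither array has a replicate. At 24 h alone they included Gpx2, a glutathione peroxidase, with 77.6, 95.3 and 302 units with lonidamine, against 78.1, 78.6 and 42.7 units with vehicle, and Saa3, an acute phase serum amyloid, with 73.1, 174 and 377 units with lonidamine, against 80.5, 144 and 59.1 units with vehicle. Mnda, an interferon-inducible nuclear protein gene, was listed among the 24 h genes with 51.5, 55.5 and 219 units with lonidamine, against 4.2, 9.8 and 31.1 units with vehicle, but its vehicle arrays of 4 and 12 h lay under the floor, so its folds at those hours are bounds. A single-hour pattern can lie on the vehicle side, as for P4ha3, a collagen hydroxylase subunit, which had 305, 184 and 431 units with lonidamine, against 203, 266 and 14.7 units with vehicle.

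Some large single-hour values involve genes that also vary among the vehicle arrays. RT1-CE16, a class I histocompatibility gene, had 563, 563 and 41.6 units with lonidamine, against 12.9, 43.4 and 28.7 units with vehicle, and the vehicle array of 0 h had 314.5 units. RT1-T24-4, of the same complex, had 318, 412 and 2477 units with lonidamine, against 1748, 1658 and 1913 units with vehicle, and the 0 h vehicle array had 828.1 units. For RT1-CE16 the lonidamine arrays of 4 and 12 h lay above all 4 vehicle arrays, and the place of the 24 h array depends on which vehicle array is used. For RT1-T24-4 the lonidamine arrays of 4 and 12 h lay below all 4 vehicle arrays and the 24 h array above them. Setd1b, a histone methyltransferase gene, had 366, 36.5 and 73.4 units with lonidamine, against 54.4, 37.4 and 282 units with vehicle, so that its 4 h and 24 h differences point in opposite directions.

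Whether lonidamine arrays differed between the last and the first hour was tested directly, as lonidamine 24 h minus lonidamine 4 h with the spread taken from the 4 vehicle arrays. Of 10176 genes tested, 269 were higher at 24 h than at 4 h (2.64%) and 76 were lower (0.747%). This contrast compares 2 arrays of different hybridisation runs, does not subtract the vehicle array of each hour, and assumes that a lonidamine array varies as vehicle arrays do. Nipsnap3b, of a family of mitochondria-linked proteins, gave the largest difference, with 118, 304 and 9131 units with lonidamine, against 301, 253 and 286 units with vehicle (24 h minus 4 h log2 6.27 ± 0.24, limma adjusted p = 5.81e-06). Only the 24 h lonidamine array was high. Wnt4, a secreted signalling protein, had 12.8, 314 and 978 units with lonidamine, against 14.2, 8.9 and 3.3 units with vehicle (log2 4.72 ± 0.59, limma adjusted p = 0.00354). Ubd, a ubiquitin-like protein induced by interferon, had 95.1, 312 and 2344 units with lonidamine, against 112, 116 and 132 units with vehicle (log2 4.62 ± 0.33, limma adjusted p = 2.61e-04). Wnt4 was at the floor on all vehicle arrays, and Ubd was close to vehicle at 4 h. Sectm1b, a secreted immune protein, gave log2 4.07 ± 0.66, limma adjusted p = 0.0107. Of the groups above, 12 of 44 actin and adhesion genes, 8 of 15 acute phase genes, 8 of 18 interferon genes, 5 of 14 chemokines and 4 of 7 TNF receptors were higher at 24 h. Of 42 immediate early genes, 0 were higher by this limma test and 1, Egr1, was lower (log2 -1.19 ± 0.25, limma adjusted p = 0.0369). Among the steroidogenic genes, the tested 24 h minus 4 h differences were -3.86 (adjusted p = 1.21e-05) for Cyp17a1, -1.53 (adjusted p = 0.00586) for Cyp11a1 and -1.27 (adjusted p = 0.0211) for Hsd3b1, and 1.34 (adjusted p = 0.00581) for Star.

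**Figure D5:**
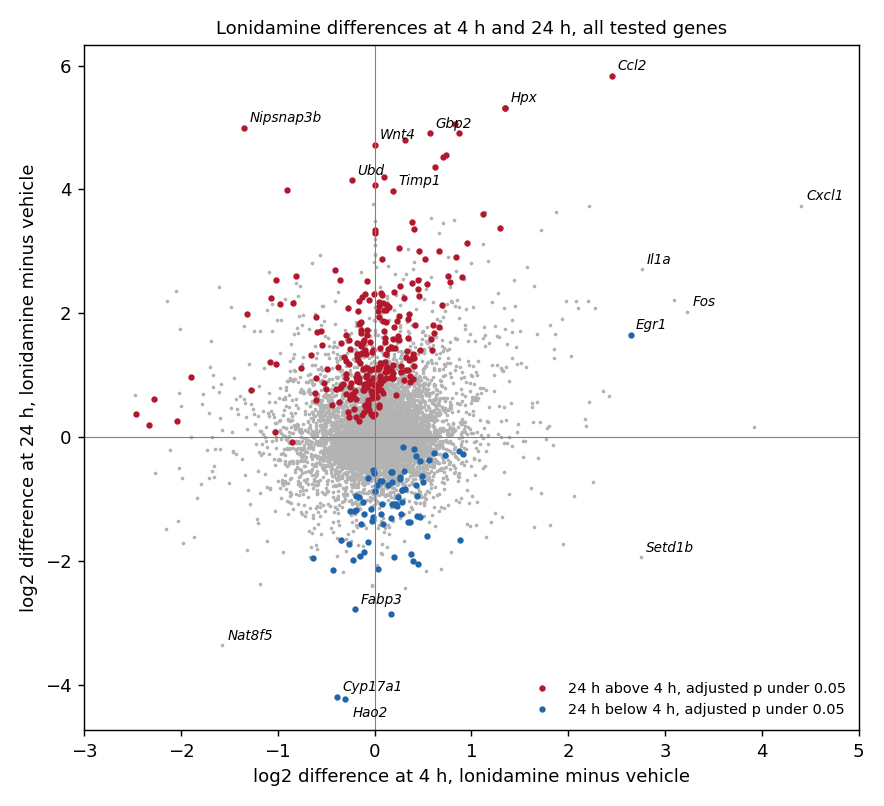
Log2 difference between lonidamine and vehicle at 24 h against that at 4 h, 1 grey point per tested gene. Red and blue points mark genes past the threshold of lonidamine 24 h minus 4 h (269 above, 76 below), and Nipsnap3b, Wnt4 and Ubd lie high on the 24 h axis with no rise at 4 h.

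The genes lower at 24 h than at 4 h included several enzymes and lipid carriers. Hao2, a peroxisomal hydroxy acid oxidase, had 4068, 1632 and 253 units with lonidamine, against 5018, 3108 and 4749 units with vehicle (log2 -4.01 ± 0.31, limma adjusted p = 2.61e-04). Fabp3, a fatty acid binding protein, had 3585, 2233 and 601 units with lonidamine, against 4125, 3897 and 4126 units with vehicle (log2 -2.58 ± 0.15, limma adjusted p = 7.95e-05). Zcchc18, a zinc finger gene, had 1125, 609.8 and 151 units with lonidamine, against 1003, 993 and 1093 units with vehicle (log2 -2.9 ± 0.17, limma adjusted p = 7.95e-05). In each of the 3 the vehicle arrays stayed near one level, apart from a lower 12 h value of Hao2, and the lonidamine value dropped at each hour. Phgdh, the first enzyme of serine synthesis, had 1200.1, 785 and 394 units with lonidamine, against 1532, 1247 and 1252 units with vehicle (log2 -1.61 ± 0.21, limma adjusted p = 0.00438). Nr0b1 gave log2 -2.30 ± 0.21, limma adjusted p = 8.52e-04. None of these passed in the averaged fit.

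For leading genes the gamendazole arrays are given beside these values, and since its dose was 6 mg/kg against 25 mg/kg no comparison of the drugs is made. At 4, 12 and 24 h Cxcl1 had 1709, 1016 and 229 units with gamendazole, Il1a had 1741, 976 and 444 units with gamendazole, and Hpx had 810.4, 3351 and 5796 units with gamendazole. Nat8f5 had 103, 24.3 and 2.5 units with gamendazole, and Cyp17a1 had 1739, 393 and 5.8 units with gamendazole.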

How the data were processed

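RNA of whole rat testis was hybridised to Affymetrix Rat230_2 arrays, 1 per treatment and hour. The deposited table gives intensity per probe set on a linear scale, made by the authors with GCOS 1.1, per the submitters' processing notes, and scaled to 1 trimmed mean per array, as the values show. The other processing steps are not given in the sources used here, and precision is limited by the number of arrays. Across tested probe sets, 95% intervals of the averaged log2 differences reached 0.39 to each side in the median.

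From 31099 probe sets, 57 controls were left out. Values were floored at 37.1 units, the pooled 25th percentile, and log2 was taken here from the deposited intensity. The 17405 probe sets at or above 116.2 units, the pooled median, on at least 2 of the 9 arrays of 4, 12 and 24 h were tested. Symbols came from the platform's annotation table, in which 20826 probe sets had 1 symbol, 436 had several and 9780 were not listed. Each gene is given by its tested probe set with the highest mean. Another gene table for a related species was not used.

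The averaged comparison used limma 3.58.1 in R 4.3.3 with treatment and hour as factors (4 residual degrees of freedom), eBayes with a trend and Benjamini-Hochberg adjustment at 0.05. Lonidamine 24 h minus 4 h was fitted with the 3 lonidamine arrays and the 4 vehicle arrays (3 residual degrees of freedom, 16854 probe sets). Both fits were tested on simulated data. Pairing by hour comes from the labels. Deviations of same-hour lonidamine and vehicle arrays from their group means correlated at r = -0.01, 0.02 and 0.04 at 4, 12 and 24 h, so the arrays of an hour did not deviate together.

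The comparison, the 34 gene lists (22 of pathways, 12 of markers) and the tests were chosen with earlier results of these data known. Genes were named by 1 rule: the 20 largest rises and up to 10 largest falls past the threshold, up to 5 passing and 2 other members of each list, the 8 largest upward and 6 largest downward folds at each hour, 8 genes of each hour pattern, 8 each way of 24 h minus 4 h, and the genes of lonidamine's target proteins. Genes outside the rule are marked as chosen after their values were seen. Alternatives changed the block, the floor, the filter, the normalisation, the eBayes setting and the arrays included. No promoter or protein sequences were used here.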

Additional observations from a re-analysis of the deposited data

Results flagged for a closer look

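Of the named genes, 36 were higher and 10 lower on the lonidamine array of 24 h than on that of 4 h past the limma threshold. This contrast sets 1 array against 1 other with the spread of the vehicle arrays and does not subtract the vehicle array of each hour, and some of these genes were named for this difference, so the counts are a description. In log2 units of 24 h minus 4 h, the largest were 6.27 for Nipsnap3b, 4.72 for Wnt4, 4.62 for Ubd, 4.13 for Serpina3n, 4.10 for Ccl7, 4.07 for Sectm1b, 4.06 for Gbp2, 4.02 for Cxcl11 and 3.90 for Hpx. Further genes gave 3.82 for Ccl20, 3.43 for Timp1, 3.39 for Ccl2, 3.27 for Lcn2, 3.15 for Tap1, 3.14 for Tnfrsf12a, 3.08 for Bcl2a1, 3.03 for Testin and 2.96 for RT1-T24-4. The next were 2.82 for S100a10, 2.80 for Gbp4, 2.76 for Fas, 2.72 for Icam1, 2.53 for Vgf, 2.28 for Ugdh, 2.22 for Uba7, 2.21 for Klrk1 and 2.08 for Tnfrsf1a. The smallest of the higher ones were 1.98 for Tpm4, 1.97 for Irf1, 1.91 for Stat3, 1.84 for Des, 1.5 for Akr1b8, 1.14 for Il6st, 1.05 for Ctsl, 0.97 for Tgfb3 and 0.73 for Emb. The lower genes gave -1.19 for Egr1, -1.61 for Phgdh, -2.15 for Armh4, -2.27 for Pwwp3b, -2.30 for Nr0b1, -2.58 for Fabp3, -2.87 for Islr2, -2.9 for Zcchc18, -3.86 for Cyp17a1 and -4.01 for Hao2. Hour and hybridisation run coincide for these arrays and cannot be told apart.

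In 5 named genes the difference from vehicle was at least 2-fold in opposite directions at different hours, with the brighter array of each pair at or above 116.2 units. With no condition on brightness there were 8, the others being Fas, Slc24a2 and Slc16a3. The change of direction itself was not tested for each pair of arrays. The log2 differences of Hspa1l were -2.48, 1.03 and 0.68 at 4, 12 and 24 h. The log2 differences of Klrk1 were -2.28, 1.07 and 0.62 at 4, 12 and 24 h. The log2 differences of LOC102554403 were 1.94, -2.58 and -1.72 at 4, 12 and 24 h. The log2 differences of Nipsnap3b were -1.35, 0.27 and 5.0 at 4, 12 and 24 h. The log2 differences of Setd1b were 2.75, -0.0116 and -1.94 at 4, 12 and 24 h. Each rests on 1 array per treatment and hour.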

How the results depend on the processing

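Averaged over the hours, 137 probe sets passed (135 higher, 2 lower). With a replicate block by hour in the 6 lonidamine and vehicle arrays alone the count was 47, with no replicate block it was 49 in 9 arrays and 56 in 6 arrays, and adding the 0 h vehicle array to it gave 129. It was 2 with the floor at the pooled median, 0 with no filter on low values (2775 at an unadjusted p under 0.05), 55 with the filter at the pooled 75th percentile, 2 with eBayes without the trend and 4 with the actin 3' to 5' ratio as a covariate. Leaving out 1 hour or 1 gamendazole array gave 0 to 573. The floor at the 10th percentile, quantile normalisation, cyclic loess and robust eBayes gave 94 to 124, and the hybridisation run in place of the hour, an alternative chosen after seeing the data, gave 92. For lonidamine 24 h minus 4 h, 489 probe sets passed, 990 with no filter and 94 without the trend, and 336 to 457 with 1 vehicle array left out. Probe sets at least 2-fold from vehicle numbered 511, 880 and 1345 at 4, 12 and 24 h. They numbered 151, 385 and 801 with the floor at the pooled median, and 174, 318 and 554 at 3-fold. Against the mean of the 4 vehicle arrays they numbered 276, 591 and 1131. The 39 named genes past the threshold kept their direction under every alternative that tested them, and all 39 lost the call without the 12 h arrays and without the trend. The cause of these shifts was not tested. The sign of a list's median turned under both quantile normalisation and cyclic loess for the lonidamine target, glycolysis and elongation lists, and under cyclic loess for meiotic spermatocytes. With 1 array per treatment and hour, a gene that responds at 1 hour only is counted as spread, and values near the floor carry no order.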

Other observations

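Of the 88 genes that rose, 40 stand on a pathway list and 48 on none. By the naming rule these include Ugdh, which makes UDP-glucuronate for glycans and for glucuronidation, with 448, 2085 and 2175 units with lonidamine, against 231, 185 and 248 units with vehicle (log2 2.53 ± 0.42, limma adjusted p = 0.0360). They also include Vgf, a secreted neuropeptide precursor, with 164, 375 and 948 units with lonidamine, against 75.6, 91.7 and 77.7 units with vehicle (log2 2.25 ± 0.39, limma adjusted p = 0.0394). The following were chosen after their values were seen. Il6r, the receptor of interleukin-6, had 145, 495 and 518 units with lonidamine, against 76.9, 54.2 and 88.4 units with vehicle (log2 2.22 ± 0.39, limma adjusted p = 0.0394). Rab20, a vesicle GTPase, had 1017, 1498 and 1377 units with lonidamine, against 373, 389.6 and 316 units with vehicle (log2 1.84 ± 0.14, limma adjusted p = 0.00116), the smallest adjusted p in the averaged fit of the genes named here. In these 4 genes every lonidamine array lay above every vehicle array.

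Adm, adrenomedullin, a vasodilator peptide, had 116, 204 and 201 units with lonidamine, against 9.2, 9.9 and 10.7 units with vehicle (log2 2.18 ± 0.38, limma adjusted p = 0.0394), with all vehicle arrays under the floor. Plin2, which coats lipid droplets, had 981, 1576 and 2388 units with lonidamine, against 642, 700.4 and 745 units with vehicle (log2 1.15 ± 0.20, limma adjusted p = 0.0394). Bnip3, a mitochondrial protein induced by low oxygen, had 982, 1375 and 1175 units with lonidamine, against 647, 568 and 706 units with vehicle (log2 0.87 ± 0.14, limma adjusted p = 0.0324), and Epas1, a hypoxia-inducible factor, had 1698, 2227 and 3745 units with lonidamine, against 1279, 1338 and 1548 units with vehicle (log2 0.81 ± 0.15, limma adjusted p = 0.0489). The groups did not overlap for Adm, Plin2, Bnip3 or Epas1. These genes were also chosen after their values were seen and do not stand for a response to low oxygen. No list of genes induced by low oxygen was drawn up, so such a response was not tested. Of the 20 glycolysis genes, 5 had an averaged difference above 0. Their median was log2 -0.05, with a sign that turned under both other normalisations. Among called probe sets, 27 had no single symbol and stay unnamed.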
